A study of Mus musculus with 9 samples.

Results

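The proteasome subunits are the 31 genes Psma1 to Psma7, Psmb1 to Psmb7, Psmc1 to Psmc6 and 11 Psmd genes (Psmd1, Psmd2, Psmd3, Psmd4, Psmd6, Psmd7, Psmd8, Psmd11, Psmd12, Psmd13 and Psmd14), of 18193 genes measured in all. The rule lists them by gene name and sets no threshold on a measured value. Each was represented by its brightest probe set among those annotated to that gene alone, and all 31 had one, 14 in the core particle (Psma, Psmb) and 17 in the regulatory particle (Psmc, Psmd). RNA of the calf muscle gastrocnemius was measured on Affymetrix arrays 14 days after surgery, in young adult, non-fasted mice of the outbred CD-1 stock. The sham group was operated without castration and carried placebo pellets. The castration group was castrated and carried placebo pellets too, and the testosterone group was castrated and carried a 2.5 mg testosterone pellet meant to last 60 days. There were 3 arrays per group, every one loaded with the pooled RNA of 3 mice, so an SD is the spread between pools and not between mice. Whole muscle was used, in which fewer cells of a type and less RNA per cell cannot be told apart. Levels are log2 values, on which a step of 1 is a 2-fold difference.

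The proteasome is the main protease of the cytosol and nucleus and degrades proteins that carry a ubiquitin chain. Its barrel-shaped core particle stacks alpha rings, which gate the entrance, on beta rings, which hold the proteolytic sites. The regulatory particle caps the barrel: a base with an ATPase ring unfolds the substrate, and a lid removes its ubiquitin. In skeletal muscle the ubiquitin-proteasome system is known as a main route of myofibrillar protein breakdown, and proteasome genes are commonly counted among those raised in several kinds of muscle atrophy. The transcription factor encoded by Nfe2l1 is known to drive proteasome genes together through antioxidant response elements in their promoters.

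Promoter windows from RefSeq (GRCm38.p6), reaching from 250 bases before a start site to 50 bases after it, were found for 25 of the 31 members, as 27 windows in all. Psmb1, Psmb2, Psmb7, Psmc3, Psmd3 and Psmd7 had none. A core of the antioxidant response element was searched as TGACNNNGC on both strands and stood in 4 of the 27 windows (14.8%), against 12.4% of all 32544 windows in the table. The sequences below are the 250 bases before the start site of the 4 members with a match, shown because this element is the one known to tie the family together. They are written 5′ to 3′ on the coding strand, the one that reads like the RNA, with the match, or its reverse complement, in capitals. Psmc6 encodes an ATPase of the base, Psmb5 and Psmb6 encode catalytic beta subunits and Psmd12 encodes a subunit of the lid. The Psmc6 stretch lies at chr14:45329574-45329823 on the plus strand, that of Psmb5 at chr14:54617996-54618245 on the minus strand, that of Psmb6 at chr11:70525107-70525356 on the plus strand and that of Psmd12 at chr11:107479278-107479527 on the plus strand.
Psmc6: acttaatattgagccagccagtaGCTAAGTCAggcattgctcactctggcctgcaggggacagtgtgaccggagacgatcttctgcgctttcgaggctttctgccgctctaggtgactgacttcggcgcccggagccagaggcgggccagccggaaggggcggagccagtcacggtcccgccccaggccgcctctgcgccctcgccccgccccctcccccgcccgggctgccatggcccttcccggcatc
Psmb5: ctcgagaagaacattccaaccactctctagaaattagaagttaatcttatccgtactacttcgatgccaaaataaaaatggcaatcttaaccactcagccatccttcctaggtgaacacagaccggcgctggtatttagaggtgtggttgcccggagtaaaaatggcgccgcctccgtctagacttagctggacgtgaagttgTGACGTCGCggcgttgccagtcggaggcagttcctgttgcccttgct
Psmb6: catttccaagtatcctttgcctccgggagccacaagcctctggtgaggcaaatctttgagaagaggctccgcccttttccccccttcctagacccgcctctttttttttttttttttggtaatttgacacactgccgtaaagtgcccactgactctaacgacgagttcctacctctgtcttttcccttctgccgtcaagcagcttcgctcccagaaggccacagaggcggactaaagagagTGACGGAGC
Psmd12: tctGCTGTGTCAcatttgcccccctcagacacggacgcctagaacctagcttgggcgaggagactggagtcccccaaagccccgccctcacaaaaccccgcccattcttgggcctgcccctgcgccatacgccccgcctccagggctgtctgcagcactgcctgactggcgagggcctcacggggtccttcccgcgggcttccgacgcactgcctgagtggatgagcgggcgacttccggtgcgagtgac
Counted from the start site, the matches began at position -227 in Psmc6, -47 in Psmb5, -9 in Psmb6 and -247 in Psmd12. The CCAAT box, a common promoter element searched as CCAAT, was in 10 of the 27 windows (37.0%), against 37.4% of all windows. The FoxO motif GTAAACA was in 0 of the 27 windows and in 3.7% of all windows, and the androgen response element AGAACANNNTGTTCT was in 0 of 27 and in 3 of 32544. No motif's letters are contained in those of another. A match is a string of letters, and a window without one says nothing about a factor.

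The muscle fibre markers were high and level on every array: the mean of the 12 listed genes, among them Acta1, Ckm and Myh4, was 13.67 to 13.73. Arrays sham 2 and testosterone 2 stood apart, with mean correlations with the other arrays of 0.972 and 0.981, against 0.989 to 0.991 for the remaining 7. The mean level of 10 measured adipocyte markers (of 12 listed) was 6.49 to 7.31 in sham, 6.29 to 6.34 in castration and 6.31 to 7.68 in testosterone arrays. It was highest in the sham group on sham 2 and highest of all on testosterone 2. The mean of 13 of 14 macrophage and lymphocyte markers was 4.21 to 4.93, 4.16 to 4.27 and 4.12 to 5.72 in the same order, highest on the same arrays. That of 11 of 12 extracellular matrix and fibroblast markers was 7.64 to 8.53, 8.37 to 8.61 and 7.71 to 8.11, with its lowest values on these arrays, and that of 10 endothelial markers was 5.45 to 5.82, 5.84 to 6.15 and 5.53 to 5.86. The values have no true zero, and Cd3e, a T cell gene, stayed between 2.99 and 3.38. On testosterone 2 the 3′ control probe set exceeded the 5′ one by 1.10 for Gapdh and 1.56 for Actb (log2), against 0.02 to 0.28 and 0.20 to 0.68 on the other arrays. Such a gap is read as a sign of RNA that is degraded or incompletely copied. The part of these array differences in the results was not tested, so the main values are also given without these arrays.

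All 31 subunits were brightly measured. Their mean levels over the 9 arrays ran from 8.21 (Psma1) to 11.21 (Psmb7) with a median of 9.63, against a median of 3.58 over all genes tested, and 1404 genes were at least as bright as Psma1. These levels are probe set brightness, which is not per transcript length, so they give no order of abundance between genes. The SD over all 9 arrays, with no regard to group, had a median of 0.18 over the members, the same as over the 1404 bright genes. The beta ring varied least, with a median SD of 0.10, and the alpha ring and lid had 0.19 and 0.20. Psmb1 had the smallest SD, 0.07, and Psmd8, a lid subunit, the largest, 0.38.

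**Figure D1:**
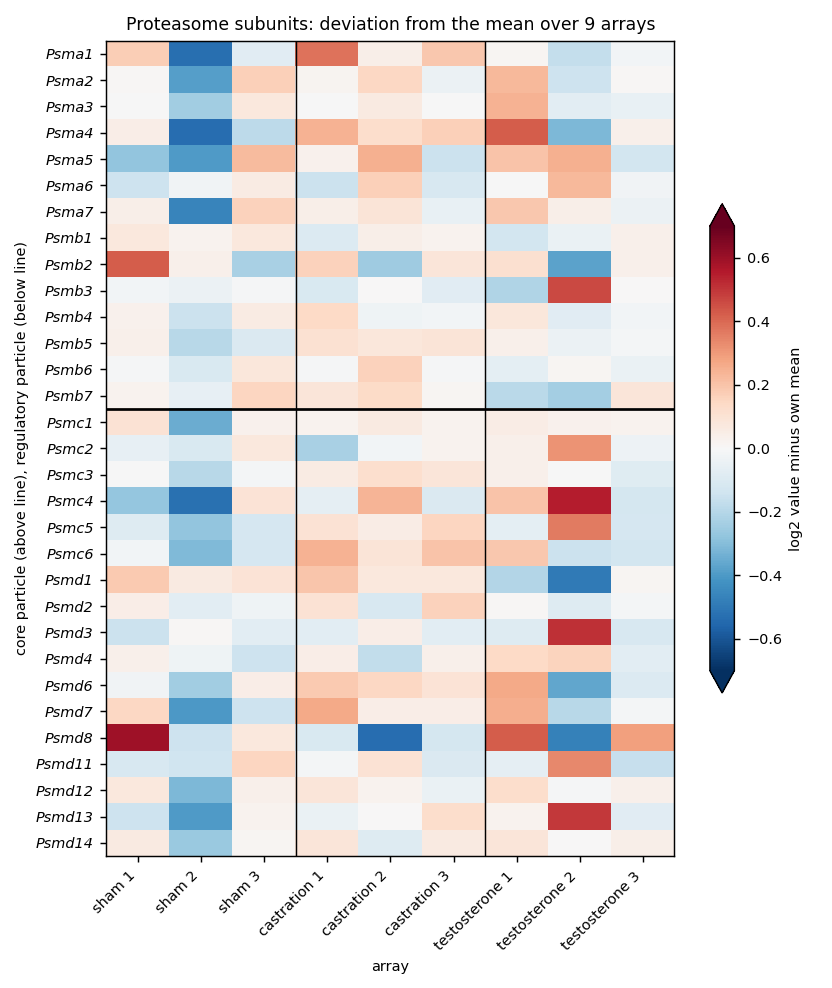
Deviation of each subunit's log2 value from its own mean over the 9 arrays (colour scale from blue, lower, to red, higher), with subunits in rows, the core particle above the horizontal line, and arrays in columns by group. Sham 2 is blue in most rows, with 27 of 31 subunits below their mean there, and testosterone 2 holds both deep blue and deep red cells.

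The map of deviations shows that one column, and no group, stood out. On sham 2, 27 of the 31 members were below their own mean and 18 had their lowest value, 9 of the core and 9 of the regulatory particle. The median deviation of the members was -0.19 on sham 2 and between -0.02 and 0.06 on the other 8 arrays. The 1404 bright genes had a median of -0.17 on sham 2 too. On testosterone 2 the median was -0.01, but 10 members had their highest value there and 4 their lowest.

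No subunit was shown to change with castration. Compared with sham, 25 of the 31 members had a higher mean in castration, against 52.9% of all genes tested, with a median difference of 0.08. Of the 1404 bright genes 72.5% were higher, with the same median of 0.08. But after renewed quantile normalisation 15 of 31 members were higher with a median of 0.00, against 46.9% of all genes. None of the members passed at an adjusted p of 0.05 (limma, Benjamini-Hochberg over 18193 genes), and 0% of all genes passed. At an unadjusted p of 0.05 1 member passed, Psmc6, where 4.72% of all genes did. The groups did not overlap, with castration higher, for 6 members (Psma4, Psmb5, Psmc3, Psmc5, Psmc6 and Psmd6), against 5.17% of all genes and 204 of the 1404 bright genes. They did not overlap with castration lower for 0 members, against 3.72% of all genes. Without sham 2, 16 of 31 members were higher, the median difference was 0.01 and no member was at a p under 0.05, while 54.8% of the bright genes were higher with a median of 0.01.

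Of the alpha ring, all 7 members had the higher mean in castration, but 4 of 7 without sham 2, and the median difference was 0.11, or 0.01 without that array. Psma1 read 8.38, 7.68 and 8.13 on the sham arrays, 8.59, 8.25 and 8.40 on castration and 8.22, 8.04 and 8.19 on testosterone. Its sham 2 value was the lowest of the 9, and sham and castration overlapped, with a difference of 0.35 (SE 0.17, limma adjusted p = 0.838), or 0.16 without sham 2. Psma4 read 9.88, 9.30 and 9.65 in sham, 10.08, 9.96 and 10.00 in castration and 10.26, 9.52 and 9.87 in testosterone. All 3 castration values lay above all 3 sham values, and the testosterone values spanned nearly the whole range. The difference of 0.41 was the largest positive one among the members (SE 0.20, limma adjusted p = 0.838), and it was 0.25 without sham 2. Psma5 read 8.95, 8.83 and 9.45 in sham, 9.26, 9.48 and 9.08 in castration and 9.43, 9.48 and 9.10 in testosterone, and its groups overlapped. Differences of the other alpha subunits, Psma2, Psma3, Psma6 and Psma7, were between 0.00 and 0.11, and between -0.07 and 0.01 without sham 2.

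Of the beta ring, 4 of 7 members were higher in castration, with a median of 0.03, and 2 of 7 were without sham 2. The catalytic subunits come first. Psmb5, which carries the chymotrypsin-like site, read 9.66, 9.43 and 9.52 in sham, 9.73, 9.70 and 9.71 in castration and 9.66, 9.58 and 9.61 in testosterone. The castration pools agreed closely and lay above all 6 other arrays, by 0.18 over sham (SE 0.08, limma adjusted p = 0.838), or 0.12 without sham 2. Psmb6, with the caspase-like site, read 9.80, 9.70 and 9.89, then 9.80, 9.97 and 9.80, and 9.74, 9.82 and 9.76 in the same order of groups. Psmb7, with the trypsin-like site, was the brightest member and read 11.23, 11.15 and 11.36 in sham, 11.29, 11.34 and 11.22 in castration and 11.02, 10.97 and 11.29 in testosterone. Neither of these 2 separated the groups, with differences of 0.06 (SE 0.08) and 0.03 (SE 0.10) for castration against sham, or 0.01 and -0.02 without sham 2. The non-catalytic Psmb1, Psmb2, Psmb3 and Psmb4 differed by -0.08 to 0.05. Psmb1 was the steadiest member of all, between 9.96 and 10.16 on the 9 arrays.

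Of the 6 ATPases of the base, 5 were higher in castration, with a median of 0.20, and 4 were without sham 2, with a median of 0.10. Psmc6 read 8.64, 8.35 and 8.54 in sham, 8.90, 8.75 and 8.86 in castration and 8.85, 8.51 and 8.53 in testosterone. Every castration value exceeded every sham value, and testosterone 1 lay within the castration range. The difference of 0.33 (SE 0.12, limma adjusted p = 0.838) was the only one here at an unadjusted p under 0.05. It was 0.25 and no longer at p under 0.05 without sham 2, and the p also left that range without castration 1 or without castration 3. A second probe set of Psmc6, with a mean of 6.17, differed by 0.72 and read 4.82 on sham 2, against 5.69 to 6.71 on the other arrays. Psmc5 read 9.32, 9.13 and 9.29, then 9.51, 9.46 and 9.56, and 9.34, 9.77 and 9.29, so castration lay above sham by 0.26 (SE 0.13, limma adjusted p = 0.838). Psmc3 read 9.99, 9.80 and 9.98 in sham, 10.05, 10.11 and 10.08 in castration and 10.03, 9.99 and 9.91 in testosterone, with castration above all other arrays by a small margin, 0.15 over sham (SE 0.08), or 0.09 without sham 2. Psmc4 read 8.66, 8.41 and 9.03, then 8.87, 9.17 and 8.83, and 9.13, 9.48 and 8.81, and its groups overlapped. Psmc2 read 10.91, 10.86 and 11.04, then 10.74, 10.95 and 10.99, and 11.00, 11.28 and 10.93, and also overlapped. Psmc1 differed by 0.11, or by -0.03 without sham 2.

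The other base subunits did not separate castration from sham. Psmd1, a scaffold of the base, read 10.34, 10.22 and 10.25 in sham and 10.35, 10.23 and 10.23 in castration, a difference of 0.00 (SE 0.12). Psmd4, which binds ubiquitin chains, read 10.08, 10.01 and 9.90 in sham, 10.09, 9.87 and 10.08 in castration and 10.18, 10.20 and 9.97 in testosterone, and Psmd2 differed by 0.06. Of the 8 lid subunits, 7 were higher in castration, with a median of 0.09, and 4 were without sham 2. Psmd14, the deubiquitinase of the lid, read 9.00, 8.68 and 8.95, then 9.02, 8.85 and 9.00, and 9.02, 8.94 and 8.98. Sham 2 was its lowest array, and the other 8 lay within 8.85 to 9.02. Psmd13 read 8.31, 8.06 and 8.48, then 8.41, 8.46 and 8.58, and 8.48, 8.95 and 8.38, with overlapping groups. Psmd6 and Psmd7 differed by 0.22 and 0.25, and without sham 2 by 0.13 and 0.12. Psmd3, Psmd11 and Psmd12 differed by 0.04, 0.03 and 0.09, and without sham 2 by 0.08, -0.02 and -0.03. Psmd8, singled out after its values were seen, was the widest member and read 10.99, 10.25 and 10.47 in sham, 10.29, 9.86 and 10.27 in castration and 10.82, 9.92 and 10.68 in testosterone. It was lower in castration by -0.43 (SE 0.27, limma adjusted p = 0.838), opposite to most members, with overlapping groups. Without sham 2 its difference was -0.59 and the groups did not overlap.

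**Figure D2:**
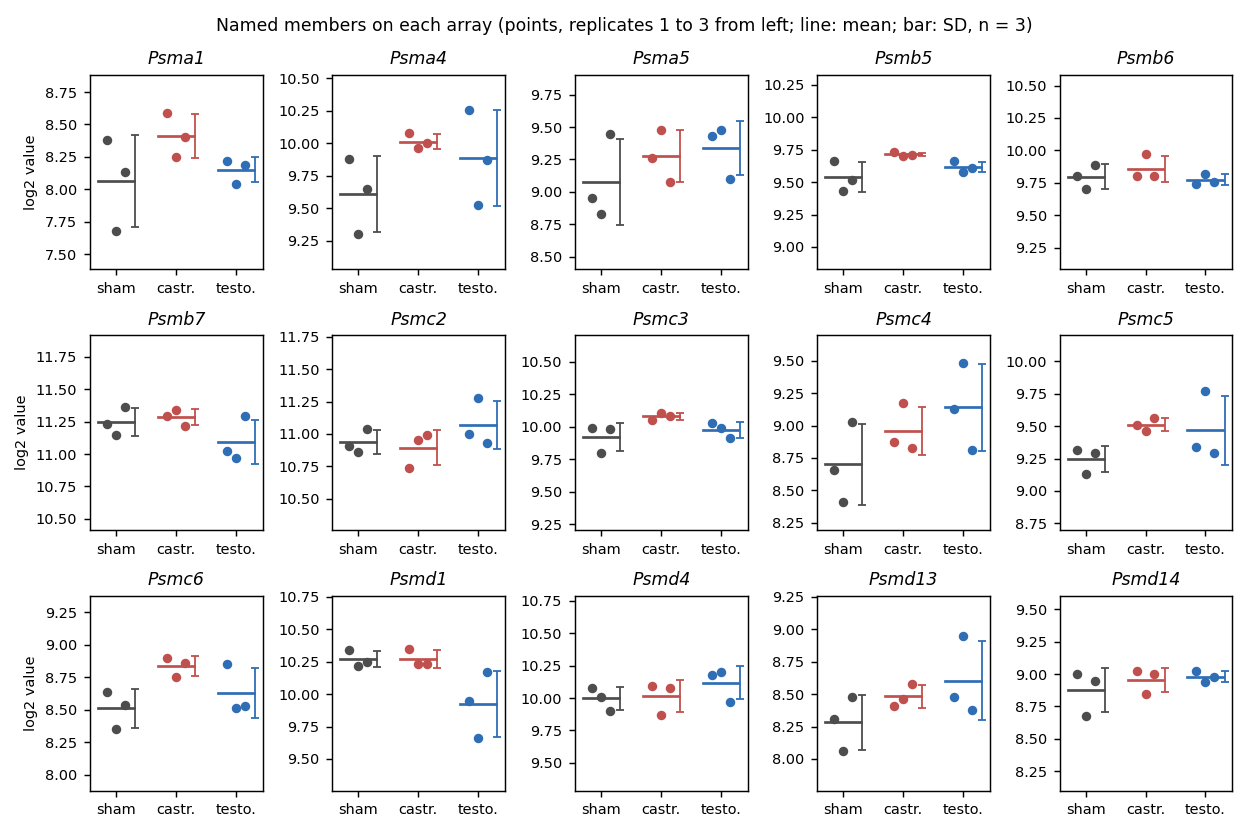
Log2 values of 15 subunits on each array, in grey for sham, red for castration and blue for testosterone, with the 3 replicates of a group as points, the group mean as a line and the SD (n = 3) as a bar; every panel spans the same number of log2 units. Castration points lie above the sham points for Psma4, Psmb5, Psmc3, Psmc5 and Psmc6, and testosterone points lie below both other groups for Psmd1.

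Testosterone against castration showed no direction common to the members that held for both choices of probe set. Of the 31 members, 14 were higher and 17 lower in testosterone, with a median difference of -0.01, and 48.3% of all genes were higher. Without probe sets whose name has the suffix x, s or a, which left 27 members, 5 were higher and 22 lower, with a median of -0.07, and 47.2% of all genes were higher. The probe sets then left for Psma3, Psma5, Psmb1, Psmc6 and Psmd13 were dim, with means of 3.10, 2.98, 4.23, 3.12 and 3.08. Both counts therefore include dim values. With the brightest probe sets, none of the 31 members passed at an adjusted p of 0.05, as was true of 0% of all genes (limma, 18193 genes), and 1 member, Psmd1, was at an unadjusted p under 0.05, against 3.48% of all genes. The groups did not overlap, with testosterone lower, for 4 members (Psma1, Psmb5, Psmc3 and Psmd1), against 4.79% of all genes and 133 of the 1404 bright genes, and with testosterone higher for 0 members, against 4.22% and 90 of 1404. Psmd1 read 9.95, 9.66 and 10.17 on the testosterone arrays, below all 3 castration arrays and all 3 sham arrays given above. Its difference from castration was -0.34 (SE 0.12, limma adjusted p = 1), and -0.21 without testosterone 2, its lowest array, where the p was no longer under 0.05, nor was it without castration 1. Psma1 differed by -0.26 (SE 0.17), Psmb5 and Psmc3 by -0.10 each (SE 0.08), and Psmb7 by -0.19 (SE 0.10). Psmd8 had the largest positive difference of the members, 0.34 (SE 0.27), with overlapping groups. Without testosterone 2 it was 0.61, and Psmd8 was then the 1 member at an unadjusted limma p under 0.05, against 2.64% of all genes. By role, 4 of 7 alpha subunits, 1 of 7 beta subunits, 2 of 6 ATPases and 6 of 8 lid subunits were higher in testosterone. Without testosterone 2 these counts were 5, 1, 3 and 4.

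Testosterone was also set against sham, where the same testosterone arrays and the same sham arrays as above enter again. Of the 31 members 24 were higher in testosterone, against 52.1% of all genes and 62.4% of the bright genes, with a median of 0.10. After renewed quantile normalisation the count was 20 with a median of 0.02, against 46.3% of all genes. Without sham 2 it was 16 of 31 with a median of 0.00, against 49.4% of all genes and 44.5% of the bright genes. None passed at an adjusted p of 0.05, as with 0% of all genes (limma), and 1 member was at an unadjusted p under 0.05, against 4.35% of all genes. That was Psmd1 again, lower by -0.34 (SE 0.12, limma adjusted p = 0.780), and -0.21 without testosterone 2, where the p was no longer under 0.05, nor was it without sham 1. It was the only member whose groups did not overlap, against 3.64% of all genes lower and 2.83% higher without overlap. Psmc4 had the largest positive difference, 0.44 (SE 0.20, limma adjusted p = 0.780), and Psmd13 the next, 0.32 (SE 0.16). Both had their highest value on testosterone 2, and without that array their differences were 0.27 and 0.15.

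**Figure D3:**
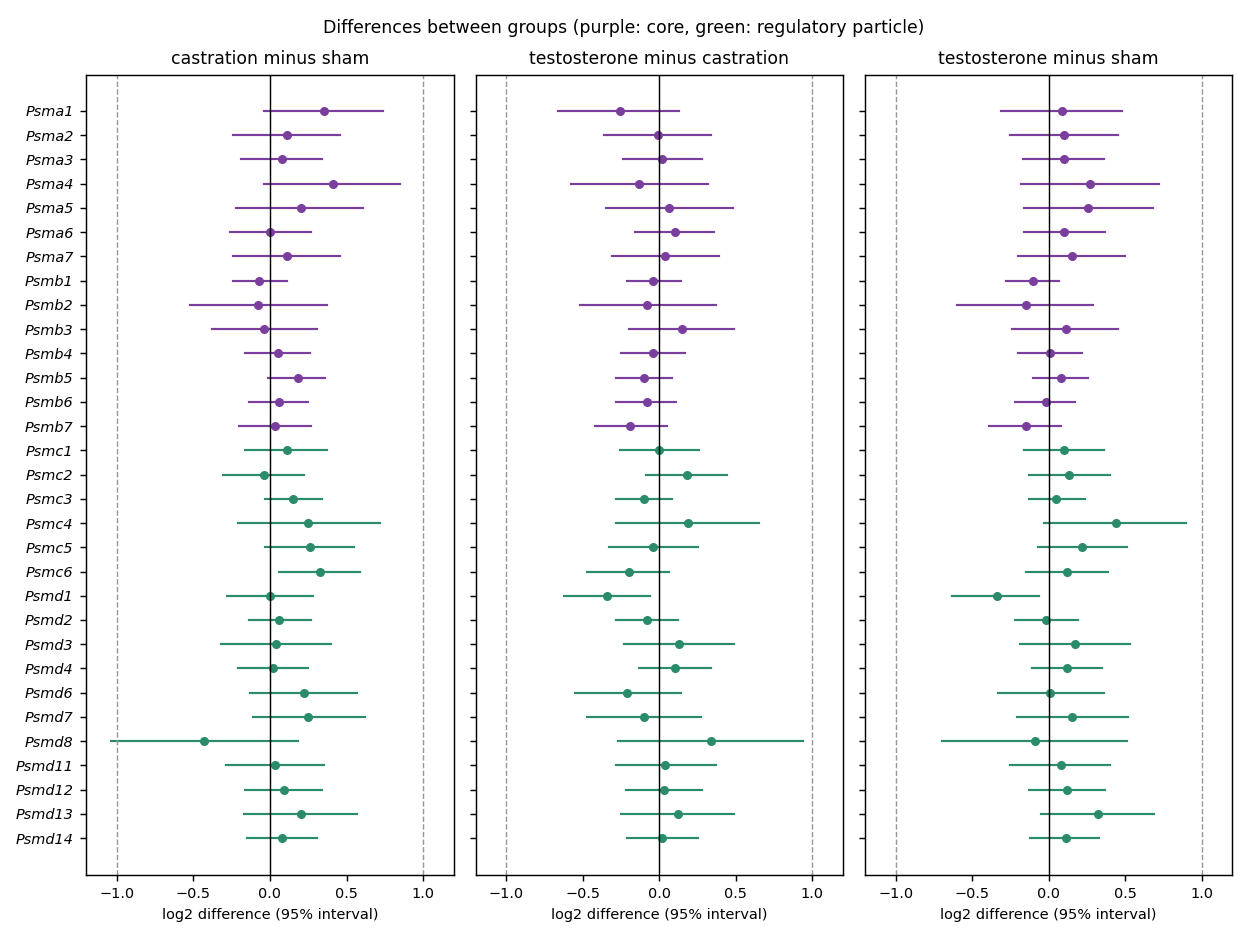
Log2 difference of each subunit (point) with its 95% interval from the limma fit (line), for the 3 comparisons in panels, with the core particle in purple and the regulatory particle in green; dashed lines mark a 2-fold difference. All intervals cross 0 except those of Psmc6 (castration minus sham) and Psmd1 (testosterone minus castration and minus sham), and only that of Psmd8 in the first panel reaches past a dashed line.

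The 95% intervals bound how large an unseen difference could be. In castration against sham 30 of the 31 intervals lay within a 2-fold difference either way, the exception being Psmd8, and 24 lay within 1.5-fold. In testosterone against castration all 31 lay within 2-fold and 27 within 1.5-fold, and in testosterone against sham 31 and 24 did. These are intervals for single genes, not adjusted over the members. They cover the spread between pools only.

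Core and regulatory medians lay close together in each comparison. In castration against sham 11 of 14 core and 14 of 17 regulatory members were higher, with medians of 0.07 and 0.09. In testosterone against castration 5 of 14 and 9 of 17 were higher, with medians of -0.04 and 0.02, and in testosterone against sham 10 of 14 and 14 of 17, with medians of 0.09 and 0.12. The core median minus the regulatory median was -0.02 in the first comparison, -0.06 in the second and -0.03 in the third. The sign turned when 1 array was left out, to 0.03 in the first comparison without castration 1 and to 0.05 in the second without testosterone 2. Taken array by array, the core minus regulatory difference lay between -0.06 and 0.08, with a pooled SD of 0.05 between arrays of a group. The gap of -0.06 was larger in size than this SD. That range and SD are of single arrays and the gaps compare groups of 3, so they do not test the gaps. On sham 2 the core median was -0.17 and the regulatory median -0.25, both the lowest of the 9 arrays. Within the core, the alpha ring median there was -0.39 and the beta ring median -0.06. Without sham 2 the medians in castration against sham were -0.01 for the core and 0.04 for the regulatory particle. Members of a complex measured on the same arrays are not independent, and no test was made of this difference.

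**Figure D4:**
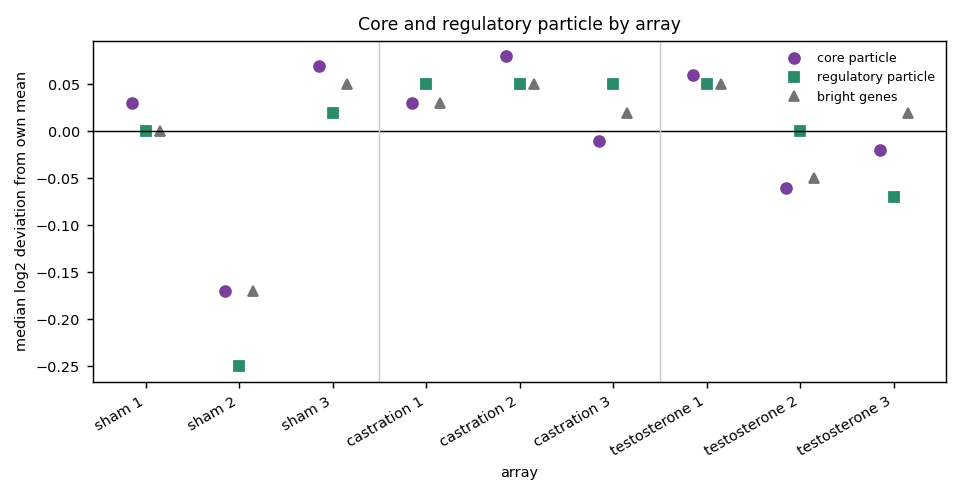
Median log2 deviation from their own means of the 14 core subunits (purple circles), the 17 regulatory subunits (green squares) and the 1404 genes at least as bright as the dimmest subunit (grey triangles) on each of the 9 arrays. The 3 symbols sit near 0 on 8 arrays and fall together on sham 2, to -0.17, -0.25 and -0.17.

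Several genes had a second bright probe set, and its readings limit what the first can show. In 12 members a second probe set had a mean above 6. The rounded differences of both sets did not share a sign in 5 for castration against sham, 8 for testosterone against castration and 3 for testosterone against sham. A rounded 0 in either set was counted as not sharing. This was so for Psma6 in castration against sham, where its brightest probe set gave 0 and the second 0.15. For Psmb3, a beta subunit, the brightest probe set gave 0.15 for testosterone against castration and the other -0.31, and on testosterone 2 they read 10.95 and 8.71. Psmc4 behaved likewise, with 0.19 from the brightest probe set and -0.03 from the other, whose values on all 9 arrays were 8.62 to 9.08. In 8 members one bright probe set had one of the name suffixes, which mark probes shared between transcripts or genes, and the other had a plain name. In 6 of these 8 the suffixed set was highest relative to the plain one on testosterone 2. Over the 8 pairs, the difference of suffixed minus plain there exceeded its own mean over the 9 arrays by a median of 0.44. Over all bright probe sets of the members, the 22 with a suffix had a median deviation of 0.10 on testosterone 2 and the 23 plain ones -0.14. Over all genes the 2180 suffixed and 3452 plain probe sets of that brightness read 0.08 and -0.05. This stands beside the 3′ to 5′ gap of that array given above, and its part in the result was not tested. Psmd1, Psmd8 and Psma4 had 1 probe set each, so their values have no such check.

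**Figure D5:**
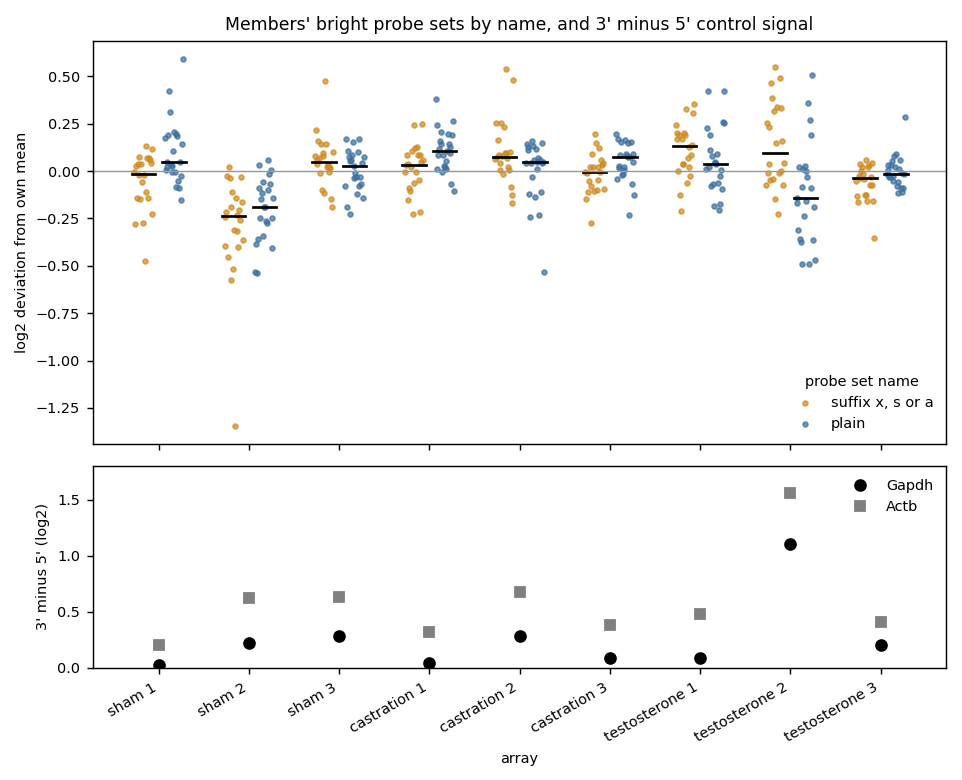
Upper panel, log2 deviation from its own mean of every bright probe set of the subunits on each array, those with a name suffix in orange and plain ones in blue, with medians as black bars; lower panel, 3′ minus 5′ control signal (log2) of Gapdh (circles) and Actb (squares). Orange and blue part on testosterone 2, at medians of 0.10 and -0.14, where the control gaps are 1.10 and 1.56; both fall on sham 2.

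The genes that build, open, feed and regulate the proteasome were followed as a list of 43, of which 33 were measured by a probe set of their own. Psme2, an activator subunit, was not among them. None passed at an adjusted p of 0.05 in any comparison. At an unadjusted limma p under 0.05 were 0 in castration against sham, 2 in testosterone against castration and 0 in testosterone against sham. The shares of all genes were 4.72%, 3.48% and 4.35%. Castration lay above sham without overlap for 3 of the list, against 5.17% of all genes. Testosterone lay below castration without overlap for 3 and above it for 1, against 4.79% and 4.22%. In castration against sham 27 of 33 were higher with a median of 0.12, against 52.9% of all genes and 72.5% of the bright genes. Without sham 2, 16 of 33 were higher with a median of 0.00, against 51.5% and 54.8%. In testosterone against castration 14 were higher and 19 lower, where 48.3% of all genes and 43.8% of the bright genes were higher. Without testosterone 2, 21 were higher and 12 lower, against 48.4% and 51.1%. In testosterone against sham 24 were higher and 9 lower, against 52.1% and 62.4%. Without sham 2, 16 were higher and 17 lower, against 49.4% and 44.5%.

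Nfe2l1, which encodes the factor that drives proteasome genes, was among the steadiest: it read 9.59, 9.39 and 9.54 in sham, 9.54 on each castration array and 9.52, 9.61 and 9.58 in testosterone. The inducible subunits Psmb8, Psmb9 and Psmb10 replace catalytic subunits in the immunoproteasome and are known from immune cells. Psmb8 read 4.51, 4.87 and 4.55 in sham, 4.75, 4.94 and 4.24 in castration and 4.61, 5.67 and 4.54 in testosterone. Psmb9 read 4.30, 4.57 and 4.11, then 3.97, 4.17 and 3.96, and 3.96, 4.73 and 4.00, and Psmb10 read 5.80, 5.70 and 5.60, then 5.70, 5.71 and 5.52, and 5.58, 6.46 and 5.70. All 3 had their highest value on testosterone 2, the array with the highest macrophage and lymphocyte marker level, and their groups overlapped. The part of such cells was not tested.

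Of the activators that open the core, Psme1 and Psme4 did not separate the groups. Psme3 was higher in testosterone than in castration without overlap, by 0.13 (SE 0.15), against 4.22% of all genes. Its nearest values in these groups both rounded to 6.58. Psme1 read 7.94, 8.12 and 8.37 in sham, 8.81, 8.22 and 7.93 in castration and 8.20, 8.42 and 7.97 in testosterone. Psme4, an activator that works without ATP, read 10.31, 10.36 and 10.50, then 10.24, 10.36 and 10.34, and 10.53, 10.29 and 10.33. Of the 8 assembly factors measured, Pomp, the chaperone that matures the core particle, read 9.63, 9.44 and 9.63 in sham, 9.70, 9.74 and 9.72 in castration and 9.45, 9.49 and 9.63 in testosterone. The castration arrays lay above the other 6, with testosterone against castration at -0.20 (SE 0.09, limma adjusted p = 1, unadjusted p under 0.05). Psmg2, a core assembly chaperone, differed by 0.72 between castration and sham (SE 0.38, limma adjusted p = 0.838) and read 4.69 on sham 2, against 5.97 to 6.77 elsewhere, and the difference was 0.22 without sham 2. Its difference from sham was also 0.72 in testosterone (limma adjusted p = 0.780), or 0.23 without sham 2. Ecpas, a scaffold protein that binds the whole proteasome, read 8.88, 8.62 and 8.66, then 9.17, 8.93 and 9.17, and 8.88, 8.29 and 8.82. Its castration arrays lay above all others, by 0.37 over sham (SE 0.16, limma adjusted p = 0.838), and testosterone was lower than castration by -0.43 (SE 0.16, limma adjusted p = 1, unadjusted p under 0.05), or -0.24 without testosterone 2. Uchl5, a deubiquitinase of the regulatory particle, differed by 0.55 between castration and sham (SE 0.24, limma adjusted p = 0.838), read 5.69 on sham 2 and differed by 0.30 without that array.

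In testosterone against sham the smallest p-values of the list were those of Ubqln2, a shuttle factor for ubiquitinated proteins, at 0.58 (SE 0.27, limma adjusted p = 0.780), and of Vcp, an ATPase that extracts ubiquitinated proteins, at 0.28 (SE 0.15, limma adjusted p = 0.780). Ubqln2 read 5.86 on sham 2, its lowest value of the 9 arrays, and Vcp read 11.97 on testosterone 2, its highest. Without sham 2 the Ubqln2 difference was 0.26, and without testosterone 2 that of Vcp was 0.13. Fbxo32 and Trim63 are muscle ubiquitin ligases, which tag proteins for the proteasome. Fbxo32 read 10.39, 10.42 and 10.05 in sham, 10.23, 10.01 and 10.15 in castration and 11.12, 10.79 and 10.62 in testosterone, above castration by 0.71 (SE 0.15, limma adjusted p = 0.457) and above sham by 0.56 (limma adjusted p = 0.780). Trim63 read 9.54, 9.73 and 9.77, then 9.54, 9.61 and 9.56, and 10.03, 9.86 and 9.68, with testosterone above castration by 0.29 (SE 0.11, limma adjusted p = 1). Fbxo32 was at an unadjusted limma p under 0.05 against castration and sham, and Trim63 against castration. Of all genes 3.48% and 4.35% were, in the same order of comparisons. Without overlap, testosterone lay above castration and sham for Fbxo32 and above castration for Trim63. That held for 4.22% of all genes against castration and 2.83% against sham. Neither ligase passed the adjusted threshold, and no difference between these ligases and the subunits was tested.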

How the data were processed

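RNA from 9 pools was measured on 9 arrays. Per the submitters' processing notes, the authors used RMA, version unstated there, and deposited 1 log2 value per probe set and array. RMA corrects background, quantile-normalises the arrays together and summarises probes, which is meant to remove a shift common to an array. In the deposited values the brighter probe sets were still low on sham 2. Those of mean above 6, 2180 suffixed and 3452 plain, had median deviations of -0.29 and -0.38 there. The values were used as deposited. Of 45101 probe sets, 64 were controls, 34945 were annotated to 1 gene, 932 to several and 9160 were unlisted, and 204 kept the annotation's symbol because their gene identifier found no match in the reference table. The brightest probe set per gene, by its mean over the 9 arrays, left 18193 genes.

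Group means were compared by limma (version 3.58.1, R 4.3.3) with lmFit and eBayes. All 9 arrays entered 1 model whose sole factor was the group, following the one-way design that the study's text describes. P-values are two-sided, and Benjamini-Hochberg adjustment ran over all 18193 genes per comparison at a threshold of 0.05. The number of arrays, 3 per group, limits the precision. The script was tested on simulated data. Lists were described by counts and medians, with no test.

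The members, lists and rules were chosen with earlier results of these data known. Values on every array are given for the 3 core and 3 regulatory members with the smallest p in each comparison, the catalytic subunits, Psmd4, Psmd14, and the brightest and dimmest member. From the pathway list, members at an unadjusted p under 0.05 (up to 4, or else the 3 smallest), Nfe2l1, Psmb8, Psmb9, Psmb10, Psme1, Psme2 and Psme4 are named, beside Fbxo32 and Trim63. Psme3 was added after its values had been seen. Groups and replicate numbers come from the sample titles. Alternatives covered the probe set, normalisation, variance model, array weights, a replicate block and each array left out. The second probe set of a member, and list counts and single differences without sham 2, testosterone 2 or both, were added after the data had been seen. Identical values made up at most 5.78% of any pair of arrays, and pairwise correlations were 0.967 to 0.995, so none was a duplicate.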

Additional observations from a re-analysis of the deposited data

How the results depend on the processing

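No member passed at an adjusted p of 0.05 under any alternative that has a test. The number of all genes passing, 0 in each comparison, became 2 (castration against sham) and 2 (testosterone against castration) when a gene's probe sets were averaged, 2 and 12 with an intensity trend, 5 and 22 with renewed quantile normalisation, 174 and 59 with array weights, and 18 and 27 without sham 2 and testosterone 2. For testosterone against castration it was 9 without dim genes and 12 with only the 2 groups compared. With one array left out it ran from 0 to 7, 0 to 28 (28 without sham 2, 3 without sham 1) and, for testosterone against sham, 0 to 1. The cause was not tested. With a replicate block it stayed at 0 in every comparison. Numbers did not pair the arrays, since correlations of same-numbered deviations ran from -0.49 to 0.27. The block left the medians at 0.08, -0.01 and 0.10, and 5 (Psma1, Psma4, Psmc6, Psmd7 and Psmd8), 2 (Psmd1 and Psmd8) and 1 (Psmd1) members were at an unadjusted p under 0.05, against 4.62%, 3.63% and 3.05% of all genes. Without sham 2 and testosterone 2, Psmc5 and Psmd8 were at an unadjusted limma p under 0.05 in castration against sham. The same was true in testosterone against castration, and the shares of all genes were 5.38% and 5.78%.

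Renewed quantile normalisation gave castration-sham medians of 0.00 for all members, -0.02 for the regulatory particle and 0.04 for core minus regulatory, and testosterone-sham medians of 0.02 and 0.02 for all members and the regulatory particle. Testosterone-sham medians for all members and the core were 0.01 and -0.01 without suffixed probe sets (27 members measured, some by dim probe sets), and 0.01 and 0.00 with array weights. Without sham 2 and testosterone 2 they were 0.01, -0.02 and, for the regulatory particle, 0.02, and core minus regulatory was 0.05 for testosterone against castration. With one array left out, testosterone-sham medians ran from 0.00 to 0.14 (all members), -0.04 to 0.12 (core) and 0.02 to 0.17 (regulatory), each lowest without sham 2. Core minus regulatory ran from -0.08 to 0.03 for castration against sham, at those ends without castration 2 and castration 1, and from -0.09 to 0.05 for testosterone against castration, highest without testosterone 2.

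Signs of small differences turned in some single members. For castration against sham these were Psmc2 (0.03 with the mean of probe sets, 0.02 without suffixed ones, 0.02 from its second probe set), Psmd13 (-0.05 without suffixed ones), Psmb6 (0.00), Psmd14 (-0.02) and Psmd4 (-0.06) with renewed quantiles, Psmd14 (-0.01) and Psmd4 (-0.02) with array weights, and Psmb7 (-0.02) and Psmd14 (-0.02) without sham 2 and testosterone 2. For testosterone against castration they were, without suffixed probe sets, Psma5 (-0.01), Psmc2 (-0.02), Psmc4 (-0.03) and Psmc6 (0.12), from the second probe set Psma5 (-0.05), Psmc2 (-0.02), Psmc4 (-0.03) and Psmd4 (-0.03), and without both arrays Psma4 (0.05), Psma5 (-0.01) and Psmd13 (-0.05). For testosterone against sham they were Psma5 (-0.01) and Psmc2 (0.00) without suffixed probe sets, Psmc2 (0.00) from its second, Psmb6 (0.01) with median centring, Psma1 (-0.03) with renewed quantiles, Psma1 (-0.15), Psmb5 (-0.01) and Psmc3 (-0.01) with array weights, and Psma1 (-0.05), Psmc2 (-0.01) and Psmc3 (-0.02) without both arrays. The values of Psma5, Psmc6 and Psmd13 without suffixed probe sets came from dim probe sets, with means of 2.98, 3.12 and 3.08. With one array left out, ranges crossing 0 were, for castration against sham, Psmb7 -0.02 to 0.09, Psmd14 -0.02 to 0.14, Psmc2 -0.09 to 0.03 and Psmd4 -0.03 to 0.09. For testosterone against castration they were Psmd14 -0.03 to 0.06, Psma5 -0.03 to 0.18, Psmc5 -0.19 to 0.05, Psma4 -0.32 to 0.05 and Psmd13 -0.05 to 0.23, and for testosterone against sham Psma1 -0.11 to 0.25, Psmc3 -0.01 to 0.09 and Psmb6 -0.08 to 0.02.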
